A study of Mus musculus with 8 samples.

Results

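Distal intron peaks are the eCLIPseq peaks of the DEAD-box RNA helicase DDX5 that lay deep inside introns of mouse intestinal epithelial cell (IEC) transcripts. A peak of a deposited list was taken when it overlapped no exon of any GENCODE M21 transcript on its strand and lay in an intron more than 500 bases from every exon of the transcripts that hold it, on genome build GRCm38. The lists were kept apart. They held 3090 such peaks of 16455 in the colon list of the antibody sample named mAb, 1098 of 9146 in the colon list of the sample named rAb, and 174 of 1278 in the small intestine list. The rule used position only and no measured value, and every peak taken was checked to lie in an annotated intron.

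In eCLIPseq, UV light links proteins to the RNA they touch, the protein is immunoprecipitated (IP), and the bound RNA is sequenced together with an input of the same fragment size that skipped the IP. The small intestine samples were 2 CLIP and 2 input libraries from IECs of 8-week-old female C57BL/6 mice, wild type by label, freed from the tissue by EDTA, sequenced paired-end and merged over both replicates into 1 list. The colon samples were 1 CLIP and 1 input library for mAb and 1 CLIP and 1 input library for rAb, sequenced single-end. Their genotype label was wild type, while their growth protocol named mice of 120 days with a floxed Apc allele (Apcfl/+) and CDX2Cre, a Cre driven in the hindgut epithelium, and the study's methods describe wild-type C57BL/6 females as the source of the IECs for eCLIPseq. The sources thus differ on the genotype of the colon samples, which is not settled here. All CLIP labels gave the same antibody catalogue number, and the colon files were named as merged from replicates 1 and 2. No list carried values per replicate, so the values below describe lists and have no replicate error. Tissue, protocol and peak selection changed together between colon and small intestine.

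Introns are transcribed and then removed by the spliceosome, most of them in the nucleus, so a CLIP peak far from any exon marks a fragment of unspliced or excised RNA, or of an RNA that is not in the annotation. DEAD-box helicases such as DDX5 unwind short RNA duplexes, and DDX5 is known as a nuclear protein that works with splicing, microRNA processing and transcription factors. Deep intron sequence also holds most of the repeats of a mammalian gene.

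The sequences that carry the results are given first, all from GRCm38, written 5′ to 3′ on the sense strand of the host gene, which reads as its RNA. A first set of places was past the cutoff in both colon lists within the same few bases. They lie in chr9:95913178-95913226 on the plus strand (intron 28 of 46 of Atr, a DNA damage kinase), chr10:31593920-31593969 on the minus strand (intron 1 of 5 of Rnf217, an E3 ubiquitin ligase) and chrX:159449248-159449289 on the plus strand (intron 3 of 16 of Map7d2, which binds microtubules). Capitals mark the bases of the place, with 15 bases on either side.
Atr: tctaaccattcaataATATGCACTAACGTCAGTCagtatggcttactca
Rnf217: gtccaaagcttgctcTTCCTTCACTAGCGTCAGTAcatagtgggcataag
Map7d2: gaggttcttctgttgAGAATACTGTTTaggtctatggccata

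A second set shows stretches that sites of several genes share. In Col6a6 (chr9:105819502-105819583, minus strand), Cd44 (chr2:102829338-102829498, minus strand) and Peak1 (chr9:56223912-56223975, minus strand), capitals mark a run of 28 bases that was identical in these genes and at a site in the long non-coding gene Gm26561. In Il31ra (chr13:112578251-112578340, minus strand), Trpm3 (chr19:22852015-22852113, plus strand) and Camk1d (chr2:5379115-5379201, minus strand), capitals mark another run of 32 bases. Each place is printed with 15 bases on either side, and the runs in Cd44 and Peak1 extend past their sites. Neither run was compared with the whole of the 28S ribosomal RNA, so whether they are ribosomal RNA sequence was not tested.
Col6a6: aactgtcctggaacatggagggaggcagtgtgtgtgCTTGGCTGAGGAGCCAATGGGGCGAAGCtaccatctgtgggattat
Cd44: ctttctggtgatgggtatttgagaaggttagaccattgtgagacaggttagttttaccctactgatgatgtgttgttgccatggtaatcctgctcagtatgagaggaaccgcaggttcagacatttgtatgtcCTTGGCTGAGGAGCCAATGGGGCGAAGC
Peak1: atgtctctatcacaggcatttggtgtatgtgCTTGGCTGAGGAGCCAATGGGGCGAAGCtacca
Il31ra: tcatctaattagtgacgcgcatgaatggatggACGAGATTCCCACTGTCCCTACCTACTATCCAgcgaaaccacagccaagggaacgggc
Trpm3: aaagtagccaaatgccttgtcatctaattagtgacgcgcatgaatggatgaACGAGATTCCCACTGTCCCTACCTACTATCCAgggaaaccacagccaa
Camk1d: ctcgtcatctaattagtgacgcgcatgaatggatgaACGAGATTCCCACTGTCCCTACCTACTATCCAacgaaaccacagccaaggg

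A further set shows the base composition of small intestine sites. Slc5a1 (chr5:33118501-33118717, plus strand, intron 2 of 14), Asah2 (chr19:32041194-32041416, minus strand, intron 11 of 24) and Utrn (chr10:12396885-12396975, minus strand, intron 73 of 74) are printed with purine runs of at least 20 bases in capitals. Ezr (chr17:6780054-6780117, minus strand, intron 1 of 12) and Krt8 (chr15:102003294-102003385, minus strand, intron 1 of 8) are printed with runs of 3 or more G in capitals. The Krt8 stretch of 92 bases joins the small intestine site (55 bases) and the mAb site (87 bases) of that place.
Slc5a1: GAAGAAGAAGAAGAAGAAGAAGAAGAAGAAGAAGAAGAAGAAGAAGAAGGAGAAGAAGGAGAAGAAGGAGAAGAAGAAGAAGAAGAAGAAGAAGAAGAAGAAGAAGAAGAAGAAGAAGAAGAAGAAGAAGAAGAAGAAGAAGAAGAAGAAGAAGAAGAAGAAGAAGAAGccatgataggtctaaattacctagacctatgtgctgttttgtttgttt
Asah2: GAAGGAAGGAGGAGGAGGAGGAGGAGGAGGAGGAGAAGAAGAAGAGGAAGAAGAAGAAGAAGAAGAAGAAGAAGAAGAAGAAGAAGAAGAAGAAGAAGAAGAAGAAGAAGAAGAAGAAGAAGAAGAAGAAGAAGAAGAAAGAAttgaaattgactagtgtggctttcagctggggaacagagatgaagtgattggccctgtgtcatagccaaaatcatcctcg
Utrn: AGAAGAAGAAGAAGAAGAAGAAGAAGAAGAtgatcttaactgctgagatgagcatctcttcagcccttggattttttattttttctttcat
Ezr: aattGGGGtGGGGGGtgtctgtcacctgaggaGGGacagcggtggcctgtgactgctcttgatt
Krt8: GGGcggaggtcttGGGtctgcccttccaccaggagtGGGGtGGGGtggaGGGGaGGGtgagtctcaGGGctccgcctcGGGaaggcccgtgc

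The last set shows sequence that is found elsewhere in the genome or in the library itself. Capitals mark a CA repeat in Cyp2c55 (chr19:39023719-39023810, plus strand, intron 4 of 8), a TG repeat in Cmip (chr8:117289530-117289608, plus strand, intron 1 of 20), the letters GATCGGAAG of a sequencing adapter, on either strand, in Trappc9 (chr15:72907113-72907168, minus strand, intron 15 of 21) and 4930438A08Rik (chr11:58284283-58284338, plus strand, intron 1 of 6), and the stretch that aligned to a 5S ribosomal RNA pseudogene in Efl1 (chr7:82731327-82731392, plus strand, intron 15 of 19).
Cyp2c55: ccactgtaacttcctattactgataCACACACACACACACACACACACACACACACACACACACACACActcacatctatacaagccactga
Cmip: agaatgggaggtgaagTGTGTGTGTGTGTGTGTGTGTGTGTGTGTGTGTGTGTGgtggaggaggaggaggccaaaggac
Trappc9: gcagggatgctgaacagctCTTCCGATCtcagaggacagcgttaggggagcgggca
4930438A08Rik: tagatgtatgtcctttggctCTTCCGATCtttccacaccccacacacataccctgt
Efl1: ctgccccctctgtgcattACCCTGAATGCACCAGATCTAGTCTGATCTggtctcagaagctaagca

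The first question was how often a deep intron peak was enriched over input. As in the methods of the study, peaks with a −log10 p and a log2 fold of IP over input that both reached 3 are called sites. In the mAb list 55 of the 3090 distal intron peaks were sites (1.78%, exact 95% interval 1.34 to 2.31), where 1.22% of all called peaks were. In the rAb list 30 of 1098 were sites (2.73%, 1.85 to 3.88), where 1.99% of all called peaks were. The small intestine list held sites only, so all 174 were past the cutoff, as was every one of its 1278 peaks. Exact intervals are Clopper-Pearson intervals and cover counting error only. Outside distal introns the share was 1.09% in mAb (0.923 to 1.28) and 1.89% in rAb (1.6 to 2.21), so the intervals were apart in mAb and met in rAb. Neighbouring intervals can count the same reads, and with intervals within 10 bases joined the share was 1.45% in mAb (1.03 to 1.98) against 0.977% elsewhere (0.811 to 1.17), and 2.27% in rAb (1.33 to 3.6) against 1.65% (1.37 to 1.97), so the intervals met in both lists. Proximal introns, within 500 bases of an exon, had a higher share in mAb (3.87%, 2.78 to 5.24) and a like share in rAb (2.34%, 1.02 to 4.56).

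Distal introns held fewer peaks than their length. They made up 78.1%, 77.1% and 83.3% of the transcribed length of the genes with a called peak in mAb, rAb and the small intestine, but 18.8%, 12% and 13.6% of the called peaks. Among sites alone, their share was 27.4% in mAb (21.3 to 34.1), 16.5% in rAb (11.4 to 22.7) and 13.6% in the small intestine (11.8 to 15.6). Per megabase of distal intron in those genes there were 11.2 peaks and 0.200 sites in mAb, 6.00 peaks and 0.164 sites in rAb, and 4.94 sites in the small intestine. The small intestine genes all hold a site by the make of their list, while the colon genes hold any called peak. The densities of sites can thus not be compared between the tissues. Sites were thus rare events in a large space.

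The colon peaks rested on few reads. Pairs of log2 fold and −log10 p were traced to whole reads for 3015 of the 3090 mAb peaks and 1080 of the 1098 rAb peaks. Elsewhere in the transcripts 9883 of 13365 and 7161 of 8048 could be traced, since a −log10 p of 0 or at its cap of 400 holds too little to trace. Of the traced distal intron peaks, 56.0% in mAb and 69.8% in rAb were 3 IP reads over 1 input read, against 24.2% and 20.7% of the traced peaks elsewhere. The median log2 fold of distal intron peaks, 2.15 in mAb and 3.24 in rAb, is the value that 3 reads over 1 take in each list, and such peaks did not reach the p cutoff. The traced sites had a median of 14 IP reads in each list, with 10 to 102 in mAb and 7 to 76 in rAb, and 32 of 50 traced mAb sites and 16 of 25 traced rAb sites had 1 input read or none, which the values cannot tell apart.

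**Figure D1:**
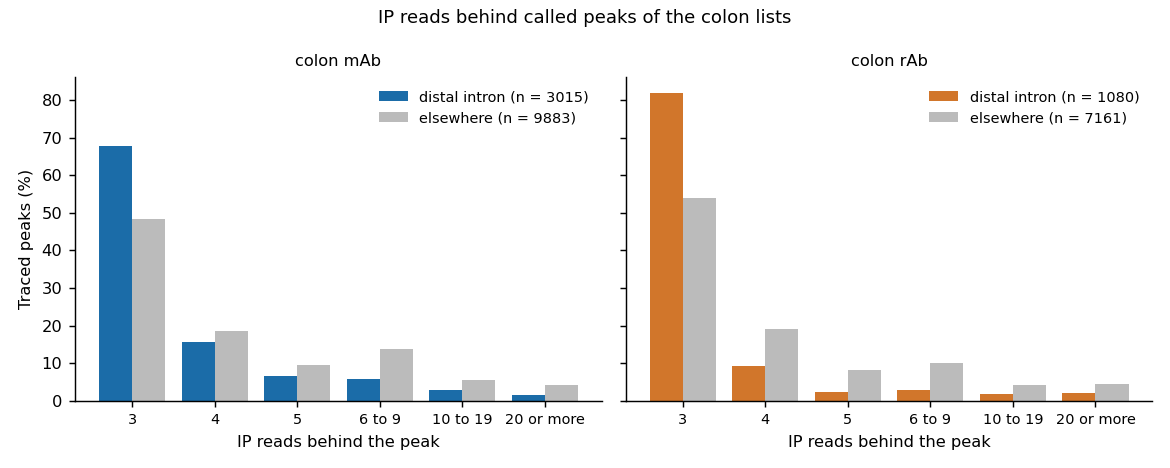
IP reads behind the traced peaks of each colon list (horizontal axis, in classes), as a percent of the traced distal intron peaks (coloured) and of the traced peaks elsewhere (grey). In distal introns 67.7% of mAb and 82.0% of rAb peaks rest on 3 IP reads, against 48.5% and 54.0% elsewhere.

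Sites in distal introns of the colon were narrow. The median width was 26 bases in mAb and 17 in rAb, against 43.5 and 45.5 for sites elsewhere in the same lists, while all distal intron peaks had medians of 49 and 46. Of the mAb sites 49.1% were 25 bases wide or less, and of the rAb sites 76.7%, against 34.2% of the sites elsewhere in each list. Narrow sites were not particular to distal introns. In rAb they were 62.5% of the 8 proximal intron sites and 64.3% of the 42 sites in non-coding exons. In mAb they were 32.5% of the 40 proximal intron sites and 47.5% of the 40 in non-coding exons. In the small intestine the median was 57 bases in distal introns and elsewhere, and 23.0% were 25 bases or fewer. Neighbouring narrow intervals often carried the same log2 fold and −log10 p, so they count the same reads. Joining intervals within 10 bases on a strand left 39 places in mAb and 18 in rAb. It left 142 in the small intestine. The 40 narrow small intestine sites lay in 19 genes, among them Mthfd1l (a mitochondrial folate enzyme), Ostm1, Fam124a, Cdk8 (the Mediator kinase) and Slc29a3 (a nucleoside transporter), and none of the 19 genes had a listed peak outside distal introns. Of the 78 genes with a wider site, 44 had none.

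**Figure D2:**
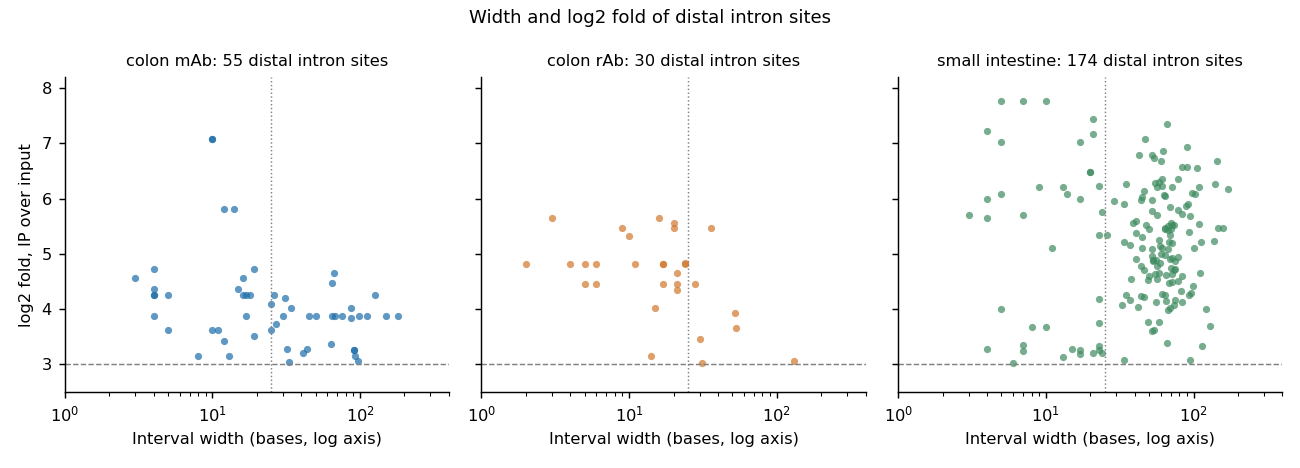
Interval width in bases (log axis) against log2 fold of IP over input for each distal intron site of the 3 lists. The dashed line is the log2 fold cutoff of 3 and the dotted line a width of 25 bases, and most rAb sites lie to its left while most small intestine sites lie to its right.

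Among the high folds of the mAb list, Trappc9, a subunit of a vesicle tethering complex, had a log2 fold of 5.81 (38 IP reads over 1 input read). Tmprss11f, a membrane serine protease, had 4.73 (18 over 1), Atf3, a stress-induced transcription factor, 4.65 (17 over 1), and Atr 4.56 (16 over 1). Itpk1, an inositol phosphate kinase, had 4.47 (15 over 1) and Rnf217 4.37 (14 over 1). Cux1 (a homeobox protein), Rbbp8nl, Prr16 and Atl3 (a GTPase that shapes the endoplasmic reticulum) were level at 4.26 with 13 reads over 1, as was 4930438A08Rik with 26 over 2. Below Trappc9 the order thus follows steps of 1 IP read.

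In the rAb list the order began with Atr at 5.65 (16 over 1) and Rnf217 at 5.56 (15 over 1). Rab2b, a small GTPase, and Efl1, a GTPase of ribosome assembly, were level at 5.46 (14 over 1). Map7d2 had 5.32 from 76 reads over 6, the best supported of the traced rAb sites with a −log10 p of 46.2. Slc22a22, of the organic anion transporter family, had 4.83 with the −log10 p at its cap of 400. Tmprss11f and the predicted gene Gm973 were level at 4.82 (9 over 1), and Brinp3 and Rapgef4 (an exchange factor for Rap GTPases) were level at 4.46 (7 over 1). Of the 18 genes with a rAb site in a distal intron, 16 had no called peak outside distal introns, as had 18 of 37 genes in mAb. Counting sites only, 17 of these 18 and 35 of the 37 had none outside distal introns. In the small intestine, whose list holds sites only, 56 of 90 genes had none.

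In the small intestine the leading genes were Mthfd1l (7.76), Kpna1, a nuclear import receptor (7.44), Slc5a1, the sodium-glucose transporter of enterocytes (7.36), Ostm1 (7.23) and Cdh1, the E-cadherin of epithelial junctions (7.08). Fam124a (7.02), Asah2, a ceramidase of the brush border (6.86), Inpp5a, an inositol phosphatase (6.79), Camk1d, a kinase (6.78), and Dstn, which severs actin filaments (6.69), followed. The median log2 fold of the 174 sites was 5.22 (quartiles 4.30 and 6.01), against 4.16 (3.55 and 4.92) for the other sites of the list and 4.66 in proximal introns. At the cap of the −log10 p stood 23 sites. Read numbers were not traced in this list.

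Few genes held several separate sites. After joining, 1 gene had 3 or more places in mAb (Krt8, a keratin of simple epithelia), none had in rAb, and 7 had among small intestine sites. The protein-coding gene 2900026A02Rik had 16 small intestine sites in 1 intron of 73627 bases, with log2 folds from 4.53 to 6.30. Cmip, a signalling adaptor, had 8 places in its first intron of 119673 bases, from 3.76 to 5.87. Itpk1 had 4, and Krt8, Ezr (which ties actin to the membrane of microvilli), Ppard (a nuclear receptor for fatty acids) and Kcnip1 (a potassium channel partner) had 3 each. The genes with the most called distal intron peaks in the mAb list held no site or 1. The long non-coding gene 2610035D17Rik had 47 with 1 site, and Cmip and Tcf7l2 (the Wnt pathway transcription factor) had 27 each and Nkd1 (a Wnt inhibitor) 23, with none. In rAb, Nkd1 led with 16 and no site.

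Deep intron peaks were next set against the position inside the intron. Over all called distal intron peaks, the median distance to the nearest exon was 4762 bases in mAb, in introns of a median 30797 bases, and 4493 bases in rAb, in introns of 28447 bases. Small intestine sites lay 3802 bases from an exon in introns of 45237 bases. The first intron held 41.2% of the distal intron peaks in mAb (39.5 to 43.0) and 36.5% in rAb (33.7 to 39.4). It held 45.4% of the small intestine sites (37.9 to 53.1). By the length of distal intron in the host transcripts of the same peaks, the first intron would hold 35.9%, 34.5% and 40.7%, so the share lay above its length in mAb and within the counting interval in the others. Of the proximal small intestine sites, 82.4% lay in the first intron (77.5 to 86.5), and their share by length of proximal intron was not computed. Peaks lay nearer to the 5′ end of their intron, at a median of 37.7% of the intron from its start in mAb and 39.8% in rAb. Small intestine sites lay at 26.7%. The colon sites alone lay a median of 3460 bases from an exon in mAb, in introns of 34363 bases, and 3120 bases in rAb, in introns of 17281 bases. The first intron held 24 of the 55 mAb sites (43.6%, 30.3 to 57.7, with 42.2% by length) and 5 of the 30 rAb sites (16.7%, 5.64 to 34.7, with 25.6% by length). The sites lay at a median of 39.3% of the intron from its start in mAb and 44.0% in rAb. Protein-coding genes hosted 97.2%, 97.9% and 96.0% of the peaks, and an exon on the opposite strand overlapped 20 mAb peaks, 12 rAb peaks and no small intestine site.

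Beyond the threshold of 500 bases, small intestine sites were fewer and lower in GC content. Sites over 200 and up to 500 bases from an exon numbered 119 with a median log2 fold of 4.90, and those over 500 and up to 1000 bases 36 with 4.71. Their GC content was 70.6% and 63.5%. It was 73.5% within 200 bases of an exon and 53.3% between 2000 and 10000 bases. In mAb 26 of 469 peaks were sites just inside 500 bases (5.54%, 3.65 to 8.02) and 11 of 448 just outside (2.46%, 1.23 to 4.35). In rAb they were 8 of 160 (5%, 2.18 to 9.61) and 3 of 179 (1.68%, 0.347 to 4.82).

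Overlap between the lists was then counted, with at least 1 shared base on the same strand. Of the 55 mAb sites, 21 overlapped a rAb site (38.2%, 25.4 to 52.3), where 37.8% of all mAb sites did. Of the 30 rAb sites, 19 overlapped a mAb site (63.3%, 43.9 to 80.1), where 42.9% of all rAb sites did and 38.8% of those elsewhere (31.0 to 47.0). With any called peak of the other list, the counts were 32 of 55 (58.2%, where 61.2% of all mAb sites did) and 28 of 30 (93.3%, where 92.9% of all rAb sites did). The overlap of the colon lists in distal introns was thus close to that of all regions for mAb and above it for rAb, with intervals that met.

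Both colon lists had a site at 11 places, in 11 genes, and at 10 of them, Col6a6 being the exception, an interval edge fell on the same base in both lists. Atr was 4.56 in mAb and 5.65 in rAb, each from 16 reads over 1. Rnf217 was 4.37 and 5.56, and Map7d2 3.43 (102 reads over 14) and 5.32 (76 over 6). Efl1 was 4.02 and 5.46, Slc22a22 3.62 and 4.83, and Zfp185, a LIM domain protein, 3.28 (79 over 12) and 4.02 (72 over 14). Tmprss11f was 4.73 and 4.82, Gm973 3.89 and 4.82, and Rapgef4 3.89 and 4.46. Col6a6, a collagen chain, was 3.04 and 3.46. The fold was higher in rAb at each of the 10 places named here, but not at all 11. The depth of input over IP traced from the values was 1.48 in mAb and 3.15 in rAb, and so equal reads take a higher fold in rAb. These 11 genes were 29.7% of the 37 mAb genes and 61.1% of the 18 rAb genes.

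The small intestine shared few sites with the colon. Of the 55 mAb sites, 7 overlapped a small intestine site (12.7%, 5.27 to 24.5, where 18.9% of all mAb sites did), and of the 30 rAb sites 3 did (10%, 2.11 to 26.5, where 3.85% of all rAb sites did). Of the 174 small intestine sites, 7 overlapped a mAb site (4.02%, where 3.76% of all did) and 4 a rAb site (2.30%, where 0.704% of all did). Called colon peaks lay under more of them, with 59 in mAb (33.9%, where 35.8% of all did) and 36 in rAb (20.7%, where 19.3% of all did). At 8 places a colon list and the small intestine both had a site. Of these, 3 were in intron 1 of Krt8, at 3.89, 3.89 and 3.84 in mAb and 4.16, 4.56 and 4.63 in the small intestine, and the best supported of them had 29 IP reads over 3 in mAb and a −log10 p of 43.4 in the small intestine. Atf3 was 4.65 in mAb and 4.88 in the small intestine. Kpna1 was 3.07 in mAb and 7.44 in the small intestine, and Kcnip1 3.21 and 5.60, with called rAb peaks at 1.85 and 2.14 that were not sites. Cdk8 had 5.71 in the small intestine, 3.15 in rAb and a called mAb peak of 2.59 that was not a site. Col6a6 was the 1 place with a site in all lists, at 3.04, 3.46 and 5.98. Itpk1 had a site in mAb and in the small intestine at different places of the same intron.

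**Figure D3:**
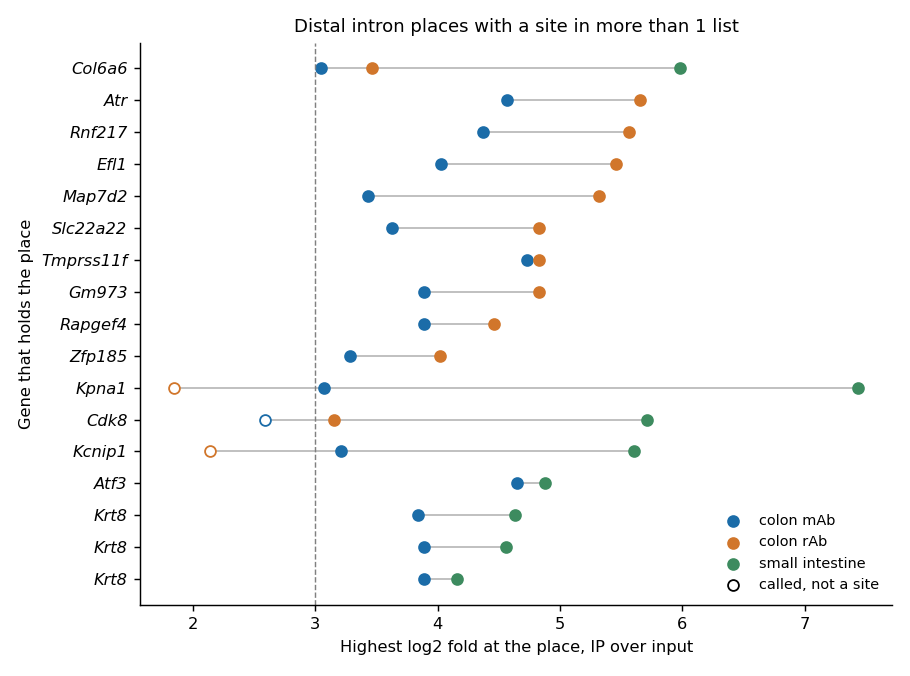
Highest log2 fold of IP over input in each list at 17 of the 18 distal intron places with a site in more than 1 list, by host gene. Filled points are sites, open points called peaks that were not sites, and the dashed line is the cutoff of 3. The upper 10 places shown are shared by both colon lists and the lower 7 by 1 colon list and the small intestine.

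Sequence at the peaks was read in windows of the middle base of each peak with 50 bases on either side, and in windows 200 bases up- and downstream of it. Purine repeats marked small intestine sites. The motif GAAGAA was in 12.1% of the 174 windows (7.63 to 17.9), in 10.3% of the upstream windows and in 1.72% of the downstream windows (0.357 to 4.96), and in 0.575% on the opposite strand. Other sites of the list had it as often (12.1%), so the motif itself was not particular to distal introns. Longer runs were more frequent in distal introns, where a run of at least 20 purines was in 13.8% (9.04 to 19.8), against 3.8% of the other sites (2.76 to 5.11), 0.575% of the downstream windows and 2.04% and 0.911% of the distal intron peaks in mAb and rAb.

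These 24 sites lay in 18 genes, and the run reached into the listed interval at all 24. Asah2, Slc5a1, Hsd17b11 (a lipid droplet enzyme), Inpp5a, Dpyd (a pyrimidine-degrading enzyme) and Cers6 (a ceramide synthase) had 2 each, and Anxa2, App, Cast, Prkca, Abcc2, Cul1, Vgll4, Gcnt2, Snx4, Ptprk, Utrn and Agmo 1 each. The run was between 36 and 635 bases long, with a median of 194. It began upstream of the interval at 21 of the 24, and it ended inside the interval at 18. At 16 it did both, so the interval held the 3′ end of the run and the bases after it, as in the printed Utrn sequence and at the downstream site of Slc5a1. Their log2 fold had a median of 6.14 (3.61 to 7.36), against 5.09 at the other distal intron sites.

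Runs of G stood above their flanks. A motif of 4 runs of at least 3 G with loops of 1 to 7 bases, which can fold into a G-quadruplex, was in 16.1% of the small intestine windows (11 to 22.4), against 3.45% in the windows on each side (1.28 to 7.35), 1.72% on the opposite strand and 12% of the other sites of the list (10.2 to 14.1). GGGGG was in 25.3%, against 17.2% upstream, 11.5% downstream and 27.5% of the other sites of the list, so it was as frequent outside distal introns. The share of G along the sites rose from 26.1% at the far upstream end to 40.7% just before the middle of the interval, and at proximal intron sites it reached 48.3%. In mAb the quadruplex was in 3.62% of distal intron peaks (2.99 to 4.35) against 1.42% and 1.17% beside them, and in rAb in 1.28% against 1.00% on each side. GC content was 57.8% at small intestine sites, against 52.0% upstream and 50.9% downstream. In mAb it was 50.2% against 45.9% and 46.0%, and in rAb 49.6% against 45.5% and 44.7%.

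**Figure D4:**
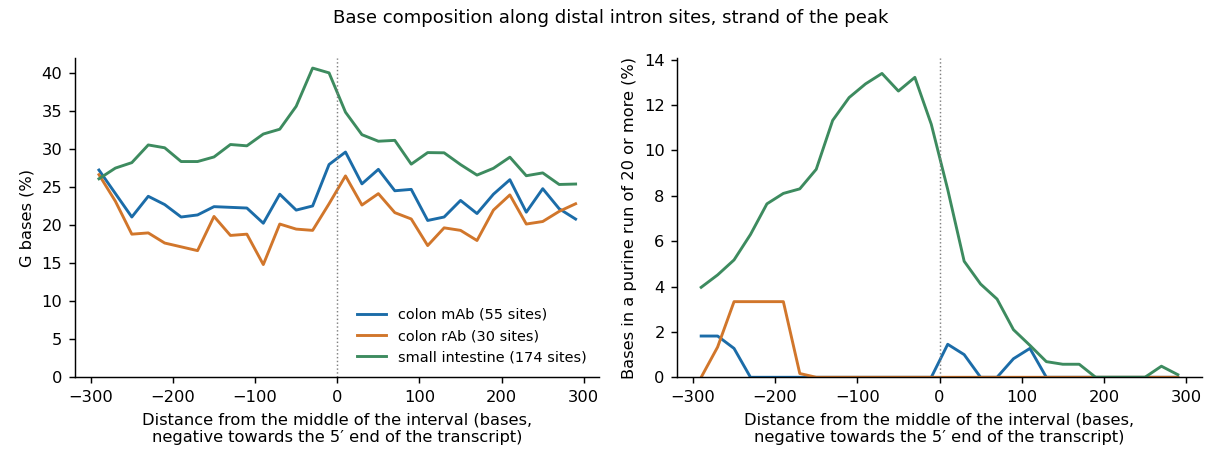
Share of G bases (left) and of bases in an unbroken run of 20 or more purines (right) in bins of 20 bases along distal intron sites of the 3 lists, by distance from the middle of the interval in bases. In the small intestine G peaks at 40.7% just upstream of the middle, and purine runs reach 13.4% upstream and fall to 0.575% at 140 to 179 bases downstream.

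Dinucleotide repeats were frequent at the called colon peaks, and the TG form in the small intestine too. CACACACA was in 11.7% of the mAb distal intron peaks (10.6 to 12.9), against 4.34% upstream, 3.5% downstream and 0.816% of the other peaks of the list. TGTGTGTG, its complement read 5′ to 3′, was in 10.1% (9.09 to 11.2), against 3.07%, 2.85% and 1.83%. In rAb the TG form was in 7.01% (5.57 to 8.69) against 2.37%, 4.10% and 1.67%, and the CA form in 1.64% against 1.46%, 1.28% and 0.398%, so both forms were frequent in mAb and the TG form in rAb. Proximal intron peaks of rAb had the TG form in 4.97% (2.92 to 7.84) and the CA form in 1.46% (0.476 to 3.38). These intervals met those of the rAb distal intron peaks. At small intestine sites the TG form was in 7.47% (4.04 to 12.4) against 1.15% upstream, 2.30% downstream and 1.72% of the other sites, and the CA form in 2.30% against 5.17%, 0% and 0.272%. At mAb sites the CA and TG forms were each in 3 of 55 windows, and at rAb sites in 0 and 1 of 30. Repeat-masked bases made up 36.9% of the mAb windows, against 8.59% at the other peaks of the list. In rAb they made up 21.9% against 7.64%, and at small intestine sites 23.5% against 11.5%. The 5′ splice site motif GTAAGT was in 1.65%, 2.09% and 0.575% of distal intron windows, against 3.54%, 3.39% and 2.26% of the others.

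**Figure D5:**
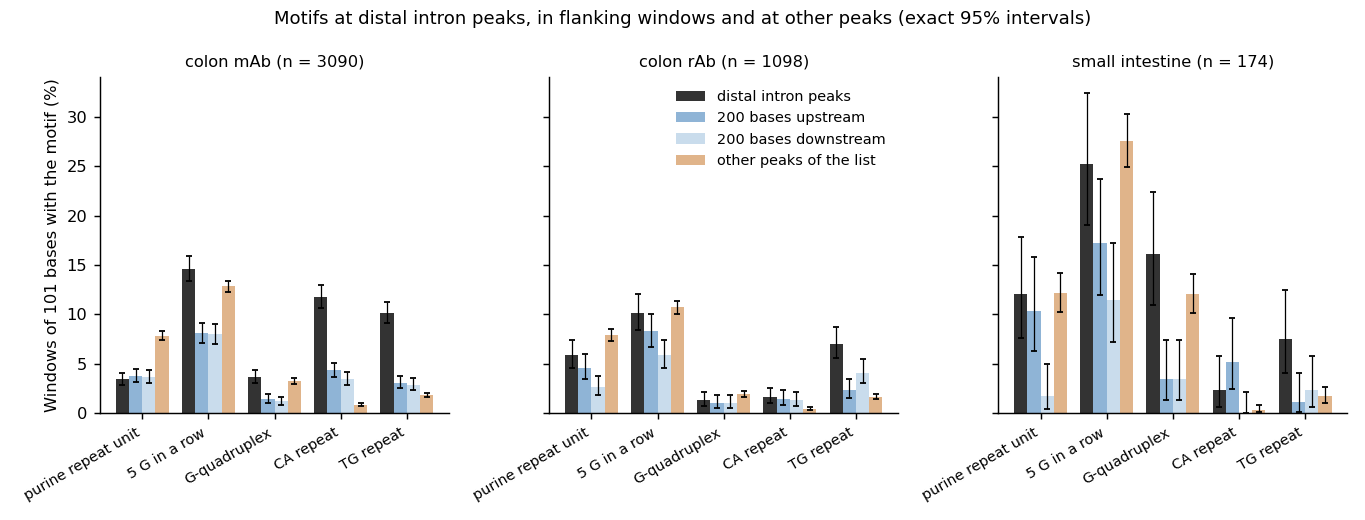
Percent of windows with each motif at distal intron peaks, 200 bases up- and downstream of them and at the other peaks of each list, with exact 95% intervals. CA and TG repeats stand above their flanks in mAb (11.7% and 10.1%), and G-quadruplex motifs in the small intestine (16.1%).

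Some sites carried sequence that is not particular to their host gene. In the small intestine 44 of 174 sites, in 31 genes, shared at least 20 bases with a site of another gene, and 17 of them, in 10 genes, outside masked repeats. The printed run of 28 bases overlapped small intestine sites in Col6a6 (5.98), Peak1 (5.90) and Gm26561 (3.70), the Col6a6 site of both colon lists and the rAb site in Cd44 (3.07). The run of 32 bases overlapped sites in Il31ra (4.17 and 3.75), Trpm3 (4.01) and Camk1d (3.34 and 3.08), the last apart from the leading Camk1d site. Sites in Slc22a22 matched a 5S ribosomal RNA gene, though not all 5 of its rAb sites did. Sites in Efl1 matched n-R5s7, a 5S copy that RefSeq lists as a pseudogene, over 30 bases at 96.7% identity. The reference used here held only a short piece of the 28S ribosomal RNA, so matches to it were not counted in full. The printed runs of 28 and 32 bases were therefore not checked against the whole of it. The adapter end GATCGGAAG, on either strand and within 15 bases of the interval, was at 23 mAb peaks (0.744%) and 8 rAb peaks (0.729%) and at no small intestine site. GGAAGAGC, which overlaps it in the adapter, was at 6 of 55 sites in mAb and 4 of 30 in rAb. It was at 2 of 174 in the small intestine. In rAb such matches were not particular to distal introns. GGAAGAGC was at 13.3% of the distal intron sites and 6.58% of the 152 other rAb sites, with intervals that met. The adapter end was at 0 of the 30 distal intron sites and 7 of the 152 others (4.61%). A ribosomal RNA match was at 5 of the 30 (16.7%) and 27 of the 152 (17.8%). Both Trappc9 and 4930438A08Rik of the leading mAb genes hold the adapter end. GGAAGAGC was also at the Rnf217 and Gm973 places of both colon lists, where the printed Rnf217 sequence holds it on the opposite strand, at the rAb site in Chka and at the small intestine sites in Kcnip1 (5.60) and Gphn. The part of shared sequence, ribosomal RNA and adapter in the folds was not tested. Without every peak that matched the ribosomal RNA of this reference, held an adapter end or repeated its central 30 bases in the genome, 36 mAb sites, 18 rAb sites and 141 small intestine sites were left.

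Host genes were last set against lists of genes, which do not act as replicates. Of all genes with a called peak, 1402 of 4998 had a distal intron peak in mAb and 599 of 3467 in rAb. In the small intestine 90 of 461 had a distal intron site. Gene length was not accounted for in these shares or in those of the gene lists. Lists of host genes also depend on which genes are transcribed, and in bulk epithelium fewer cells of a type and less RNA per cell cannot be told apart. Of 35 markers of the intestinal epithelium, 21 had a called peak anywhere in mAb and 14 in each of the other lists. Of 11 leukocyte markers 2 had one in mAb, 2 in rAb and none among the small intestine sites. A distal intron peak was in 6 of the epithelial markers in mAb and 1 in rAb. Small intestine sites were in 2 of them, and the leukocyte markers held none in any list. Krt8 held sites in mAb and the small intestine, and Cdh1 in the small intestine. Of 15 markers of stroma, muscle, vessel and nerve, 1 had a distal intron peak in each colon list.

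Among 46 junction, adhesion and actin genes, 42 had a called peak in mAb. Of these, 26 had 116 distal intron peaks, with a median log2 fold of 2.15, the median of all distal intron peaks of that list, and 1 site, in Shroom3. In rAb 14 of the 35 with a called peak had 28 distal intron peaks, with a median of 3.24, again that of the list, and no site. In the small intestine 7 of the 20 with a listed peak had 10 distal intron sites with a median of 5.07, against 5.22 for all. These were Cdh1 (7.08 and 4.75), Myo1d (6.57), Myh14 (5.72), Eps8 (5.45), Myh9 (5.15), Ezr (4.51 to 4.98) and Myo5b (4.91), which encode an adhesion receptor, myosins and proteins of the microvillus. The share of all distal intron peaks that were sites, 1.78% in mAb and 2.73% in rAb, is the background for the colon site counts of every gene list here. Counts this small cannot be told from it. The small intestine list held sites only and has no such share. Of 23 Wnt and crypt genes, 19 had a called peak in mAb, and 7 of them had 45 distal intron peaks and no site. In rAb 14 had a called peak, and 8 of them had 21 distal intron peaks and 1 site. That site was in Cd44, an adhesion receptor, at 3.07, and overlaps the printed run of 28 bases without holding all of it. In the small intestine 1 had a listed peak and none had a distal intron site. Of 35 RNA helicase and splicing genes, 31 had a called peak in mAb, and 6 of them had a distal intron peak, with 1 site in Mbnl2 (a splicing regulator, at 3.26). In rAb 28 had a called peak and in the small intestine 7, and none of these had a distal intron peak.

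Of the transcripts the study followed up, Shroom3, which shapes epithelial cells through actin, had 7 distal intron peaks in mAb, all in intron 2, and 1 was a site with a log2 fold of 3.37 from 14 IP reads over 2. Ahcyl1 had 2 distal intron peaks in rAb at 3.24 and 2.24, each from 3 IP reads, and neither was a site. C3 and Fabp1 had none in any list.

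A few distal intron peaks lay below their input. There were 45 in mAb (1.46%, against 19.4% of the other called peaks) and 8 in rAb (0.729%, against 8.91%). The lowest was the same place in both lists, in the pseudogene Gm7916, at -3.56 in mAb and -2.94 in rAb.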

How the data were processed

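DDX5 eCLIPseq of IECs was analysed from 3 deposited peak lists of 8 samples. Per the labels and the study's methods, the authors ran CLIPper on IP reads and compared each peak with size-matched input. The submitters' processing notes name cutadapt 1.9.1, STAR 2.4.0i, SAMtools 1.4.1 and mm10, which is GRCm38. The deposited log2 fold is IP over input reads normalized for depth, and the deposited −log10 p comes from a test that the sources used here do not name, with a highest value of 400. Small intestine peaks were merged by IDR and held only values of at least 3, which was checked on the file. The authors' column of regions and a further list that matched no sample label were not used.

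Regions came from GENCODE M21 by any overlap on the strand, with pysam 0.24.0, pandas 2.3.3 and scipy 1.17.1 in Python 3.11.15. Short matches to small RNAs were found by BLAST+ 2.17.0 (at least 20 bases at 90% identity). The commonest fold of each colon list was taken to be 3 reads of IP over 1 of input, which sets the depth of input over IP, and the reads of the other peaks were then traced as whole numbers that fit both deposited values of a peak, to 1% for the p by a Fisher or chi-square test. Motifs were searched on both strands of 101-base windows. Tracing, overlap and joining were tested on simulated data. Each group had 1 list, so shares have exact 95% intervals, with no p-value. Members and gene lists were chosen with earlier results of these data known. Named genes were the 10 with the highest fold per list, those shared between lists, those with at least 3 joined places and members of the lists with a site. Added to these were C3, Fabp1, Ahcyl1 and Shroom3, which the study's text names as bound and altered. The Col6a6, Il31ra, purine run, adapter and 5S examples, and the genes with most called peaks, were chosen after their values were seen. Some genes and sequences that these rules name are not reported here, though every count includes them. The depth of the libraries is not given in the lists, and read numbers limit the precision as stated beside them. Alternatives were other distances, cutoffs, joining, host genes, strand, overlap and window, and, chosen after seeing the data, the filter on repeated sequence and the minimum of 10 IP reads.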

Additional observations from a re-analysis of the deposited data

How the results depend on the processing

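Of 95 alternatives, 53 left the value within its interval or within 1.5 times its count and 42 moved it. The cause was not tested, except that a stricter or looser cutoff or fewer peaks changes a count by construction. With a distance of 200 bases distal introns held 40.3% of mAb sites, and 293 small intestine sites (22.9%). With 1000 bases they held 10.8% of small intestine sites. With a −log10 p of 5 there were 28 mAb sites (0.906% of peaks) and 19 rAb sites (1.73%). With a log2 fold of 4 there were 24 mAb sites (0.777%), and distal introns held 19.2% of small intestine sites. With a log2 fold of 1 there were 84 mAb sites (2.72% of peaks, 20% of sites) and 46 rAb sites (4.19%, 11.3%). Joined intervals left 18 rAb sites and an overlap of 11 from either colon list, and any called rAb peak raised the mAb overlap to 32. Without repeated, ribosomal RNA-like or adapter-like peaks there were 36 mAb sites, 18 rAb sites (1.84%) and 11.7% of small intestine sites, and the overlap was 9 from mAb and 8 from rAb. With at least 10 IP reads, a minimum on the reads that also set the fold and so no measure of enrichment, 37.9% and 35% of peaks were sites. In the listed interval in place of the window, GAAGAA was in 1.20% of mAb and 2.37% of rAb peaks, GGGGG in 8.32%, 4.92% and, in the small intestine, 14.9%, the G-quadruplex in 1.59%, 0.546% and 5.75%, CACACACA in 10.3%, 0.455% and 0%, and TGTGTGTG in 7.99% and 5.01%. Leaving out a replicate was not run, as the lists are merged. No paired analysis was possible because every list merges its libraries.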
